A study of Mus musculus with 6 samples.

Results

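The genes described here are the spliceosome and splicing factor genes that the deposited count table lists under the name prefixes Srsf, Snrp, Sf3a, Sf3b, Hnrnp, Lsm and Prpf, leaving out the imprinted gene Snrpn. The rule uses names and no measured value, and it finds 78 of the 24421 rows of the table. Of these, 76 had enough counts to be tested. Lsmem1 was at 0 counts in all 6 libraries and Srsf12 had 33 counts in young library 2 and 0 in the other 5. Lsmem1 shares the prefix Lsm but encodes a membrane protein, not an Sm-like protein.

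The spliceosome removes introns from pre-mRNA and is assembled from small nuclear ribonucleoproteins (snRNPs), each made of a small nuclear RNA and its proteins. Sm proteins form a ring around the U1, U2, U4 and U5 snRNAs, and LSm proteins form a related ring around U6 in the nucleus or around mRNAs to be decapped in the cytoplasm. SR proteins (Srsf genes) and heterogeneous nuclear ribonucleoproteins (Hnrnp genes) bind the pre-mRNA itself and influence which splice sites are used. In lymphocytes, alternative splicing sets, for example, which isoform of the phosphatase CD45 is made.

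RNA-seq was done on group 2 innate lymphoid cells (ILC2), tissue lymphocytes that lack antigen receptors and secrete type 2 cytokines, from the brains of C57BL/6 mice. The aged group (3 libraries) came from mice 20 to 22 months old and the young group (3 libraries) from mice 2 to 3 months old. Cells of both groups had been sorted and then expanded for 2 weeks in medium with 20% fetal calf serum, the cytokines IL-2, IL-7 and IL-33, and SCF (stem cell factor), so the values describe cultured cells. Whether a group's libraries are separate animals or cultures is not in the labels, so the p-values reflect spread among these libraries that may be technical. Nor do the labels say how many animals went into a library. Aged was compared with young, the single contrast of the design, to ask which of these genes differ between cultured ILC2 of the 2 ages.

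Library totals ran from 17314428 to 17796301 counts in aged and from 16477157 to 20804291 counts in young libraries. All 10 markers of ILC2 that were looked up were detected. Their summed level was 10880 to 12880 library-scaled normalised counts (CPM) in aged and 14580 to 16740 CPM in young libraries. Each sum of markers in this paragraph is on library totals alone. Ranges of single genes are on library sizes scaled by TMM, the method described below. Its factors averaged 0.865 in aged and 1.16 in young libraries, so TMM scaling would raise the aged sums and lower the young ones. The difference between the groups in these sums thus depends on the scaling. Of the 10 markers 1 was called higher and 5 lower in aged cells. Klrg1, a surface receptor of mature ILC2, was at 0 to 3.88 CPM in aged and 76.6 to 100.7 CPM in young libraries. Id2 lay the other way, at 6389 to 6752 CPM in aged and 3162 to 4372 CPM in young libraries. Rora overlapped, at 131.2 to 157 CPM in aged and 119.8 to 165.9 CPM in young libraries. The 4 markers of NK cells and ILC1 were at 0 in every library, as were Cd3e, Cd4 and Cd8a of T cells, Cd79a and Ms4a1 of B cells, Csf1r and C1qa of microglia and macrophages, and Cldn5 and Cdh5 of endothelium. The 6 microglia and macrophage markers summed to 42.4 to 70.4 CPM in aged and 3.37 to 18.0 CPM in young libraries, with 2 of 4 tested markers higher and 1 lower. The 4 B cell markers summed to 27.9 to 51.6 CPM in aged and 15.96 to 25.7 CPM in young libraries. For the 3 endothelium markers the sum was 111.2 to 140.9 CPM in aged and 74.85 to 120.3 CPM in young libraries. Of them 1 was tested, and it was higher. The 6 T cell markers summed to 5.89 to 12.98 CPM in aged and 7.89 to 15.3 CPM in young libraries. The part of these cells in the values below was not tested.

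The splicing factor genes did not move as a block. In aged cells 17 of the 76 tested members rose and 8 fell, and 51 passed no threshold (edgeR quasi-likelihood test, adjusted p under 0.05 over all 11805 genes tested). These were 22.4% and 10.5% of the members, beside 11.2% higher and 8.14% lower among all tested genes. The Sm ring genes and the LSm genes made up 14 of the 17 that rose, and the genes of the SF3a and SF3b complexes and of the Prpf family made up 7 of the 8 that fell. Without young library 1, 12 members rose and 4 fell. The median log2 change was 0.10 over the members and -0.10 over all tested genes. Groups that did not overlap were seen in 24 members with the aged libraries above the young ones, and in 16 with the aged libraries below, against 19.3% and 18.8% of all tested genes. In bulk RNA, a change in the cells that hold a transcript and a change in the transcript per cell cannot be told apart.

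The balance of these counts depended on how the libraries were scaled. Values below are CPM on library sizes scaled by TMM, a method that centres the bulk of genes, with factors of 0.865 ± 0.023 in aged and 1.16 ± 0.030 in young libraries (SD, n = 3 each). Scaled by library totals alone, 8 of the 76 members rose and 19 fell, beside 717 and 2381 of all 11805 genes tested. The median of all tested genes then lay at -0.52 and that of the members at -0.32. Srsf2, Snrpb, Snrpd2, Sf3b5, Sf3b6, Lsm1, Lsm7, Lsm8 and Lsm12 lost their calls on library totals, and no called member other than Srsf2 changed sign. As a share of all counts the members held 1.22 ± 0.076% in aged and 1.28 ± 0.013% in young libraries (SD, n = 3 each), and these ranges overlapped.

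**Figure D1:**
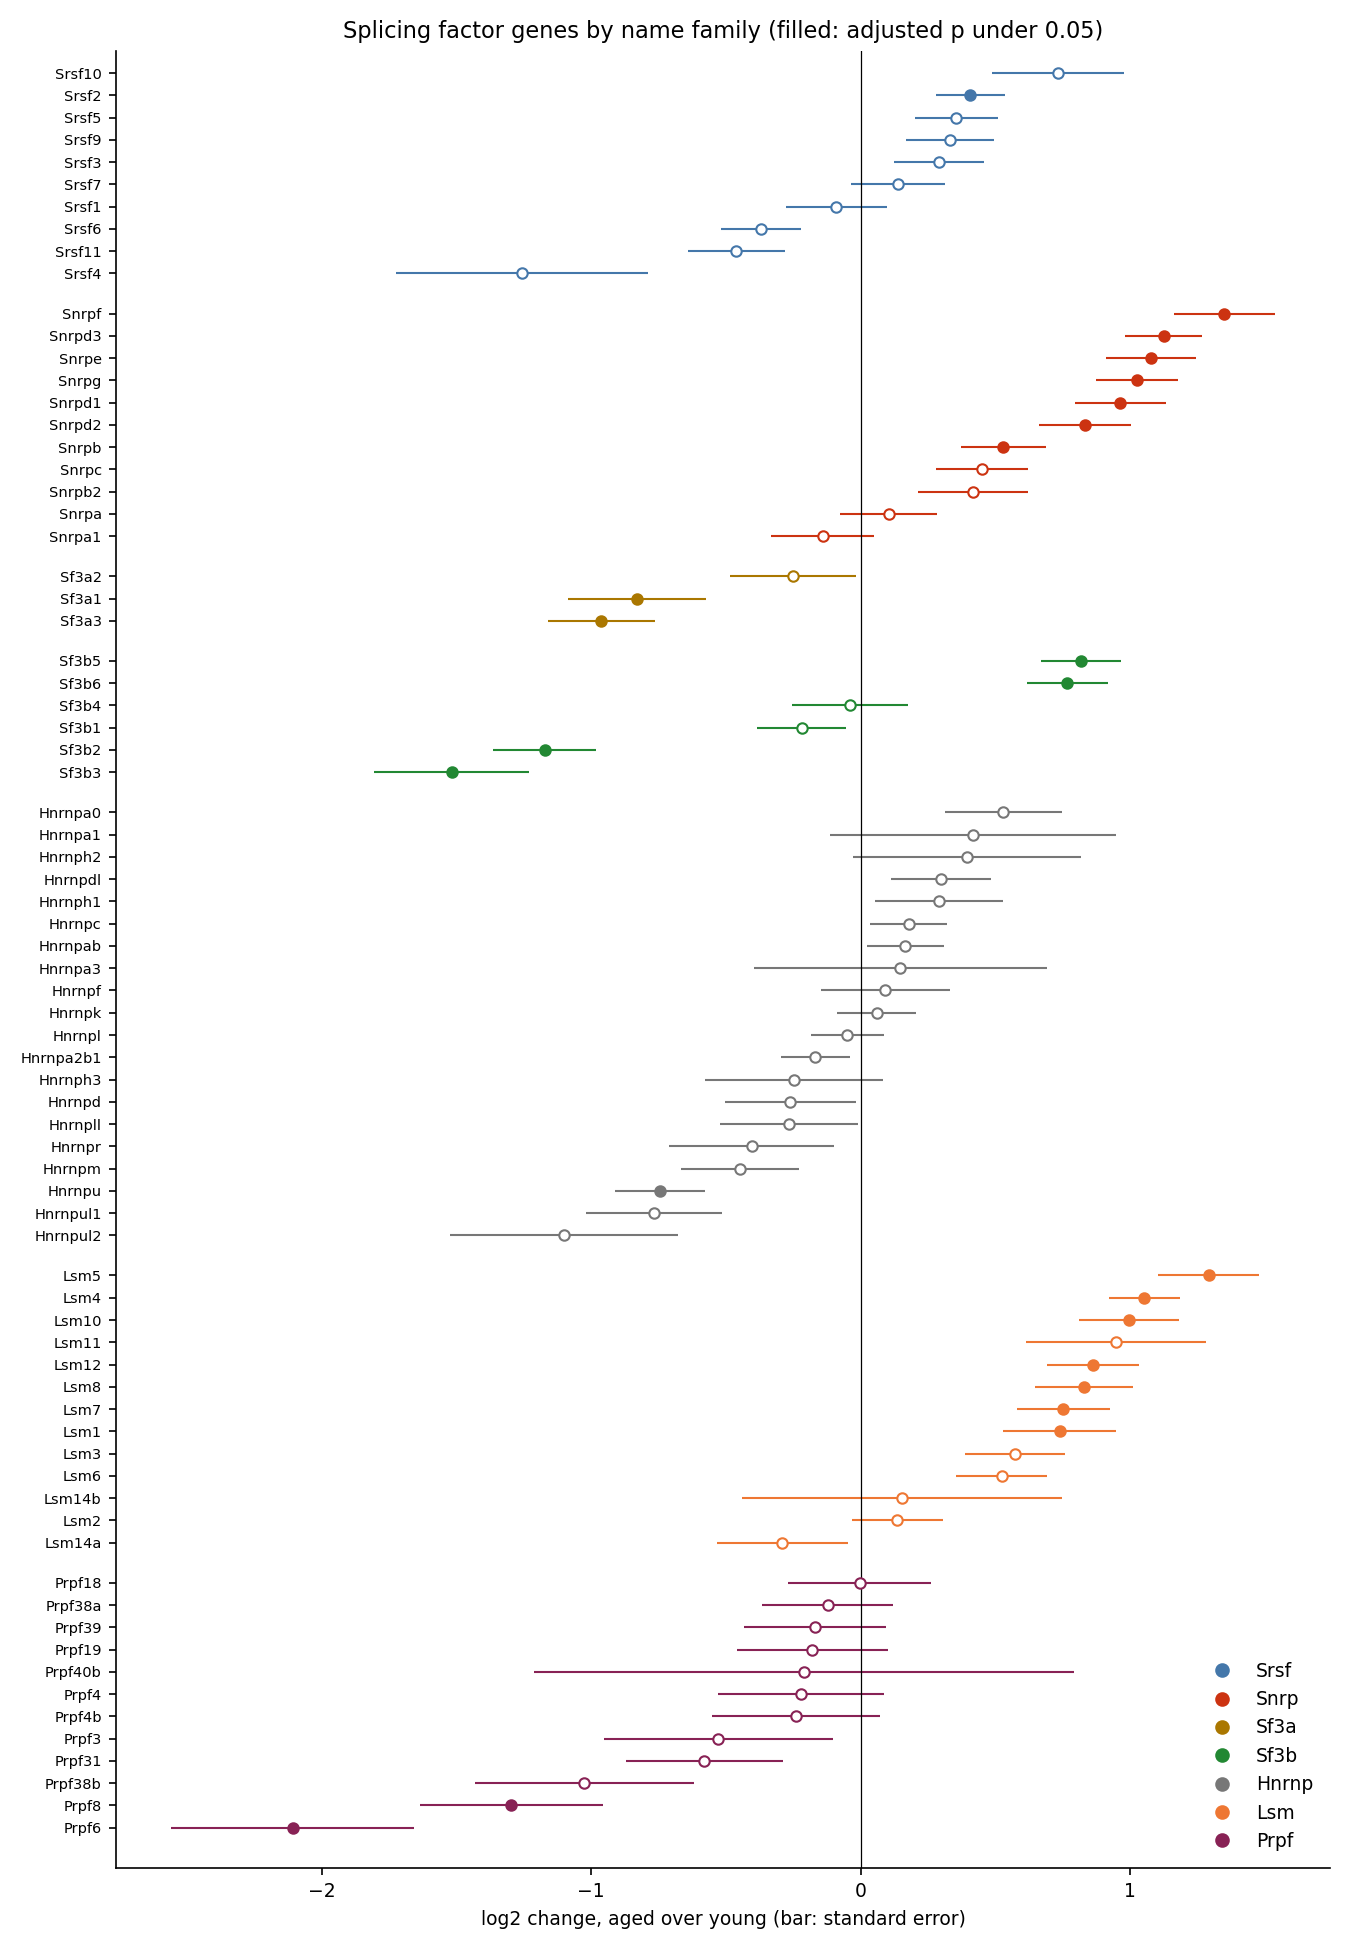
Log2 change of 75 of the 76 tested splicing factor genes, aged over young, as points with the standard error as bar, grouped by name family; filled points have an adjusted p under 0.05. Filled points of the Snrp family (7) and the Lsm family (7) lie to the right of 0, those of the Sf3a (2) and Prpf (2) families to the left.

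The 7 genes of the Sm ring, Snrpb, Snrpd1, Snrpd2, Snrpd3, Snrpe, Snrpf and Snrpg, all rose in aged cells, by 1.44- to 2.55-fold, and in each the 3 aged libraries lay above the 3 young ones. Among all tested genes 11.2% rose, and in 19.3% every aged library lay above every young one. On library totals 5 of the 7 were called. Together they took 0.351%, 0.349% and 0.346% of all counts in aged libraries 1 to 3, against 0.241%, 0.218% and 0.261% in young libraries 1 to 3, so the aged libraries were close to each other and all above the young ones. Their median log2 change was 1.03.

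Snrpf, which encodes SmF (chromosome 10, 93583029 to 93589706, GRCm38), had 494, 511 and 424 CPM in aged and 176, 146 and 239.6 CPM in young libraries. The lowest aged library thus lay well above the highest young one, and the log2 change was 1.35 ± 0.19 (SE, edgeR adjusted p = 0.00062). Of the 75-base windows of Snrpf, 18.8% also occur in an annotated processed pseudogene. Its exons overlap those of Ccdc38 on the opposite strand over 65.9% of their length. Ccdc38 had 2749, 2927 and 2533 counts in aged and 1336, 1309 and 1954 counts in young libraries, and without the strand setting of the counting, which is not given in the sources used here, reads of the pair cannot be told apart.

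Snrpd3, which encodes SmD3 (chromosome 10, 75517551 to 75537381), had 758, 772 and 795 CPM in aged and 333, 311 and 422 CPM in young libraries, a log2 change of 1.13 ± 0.14 (SE, edgeR adjusted p = 0.00037). The aged libraries lay within a narrow band and the young ones spread more widely. Snrpe, which encodes SmE (chromosome 1, 133603871 to 133610291), had 742, 759 and 768 CPM in aged and 364, 272 and 439.6 CPM in young libraries, a log2 change of 1.08 ± 0.17 (SE, edgeR adjusted p = 0.0012). For Snrpg, the SmG gene (chromosome 6, 86371304 to 86379328), the values were 479, 536 and 522 CPM in aged and 258, 208 and 289 CPM in young libraries, a log2 change of 1.03 ± 0.15 (SE, edgeR adjusted p = 0.00086). In these 3 genes every aged library lay above every young one. Part of the Snrpe and Snrpg transcripts is copied elsewhere: 24.0% of the 75-base windows of Snrpe, and a smaller share of those of Snrpg, also occur in an annotated processed pseudogene.

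Snrpd1, the SmD1 gene (chromosome 18, 10617775 to 10642079), had 397, 518 and 502 CPM in aged and 234, 203 and 289.7 CPM in young libraries (log2 change 0.96 ± 0.17 SE, edgeR adjusted p = 0.0025). Snrpd2, the SmD2 gene (chromosome 7, 19149722 to 19153542), had 209, 272 and 259 CPM in aged and 133, 122 and 161 CPM in young libraries (log2 change 0.83 ± 0.17 SE, edgeR adjusted p = 0.0060). The smallest rise of the ring was that of Snrpb, which encodes SmB (chromosome 2, 130171414 to 130179403), at 945, 789 and 647 CPM in aged and 574, 587 and 488 CPM in young libraries. Its log2 change was 0.53 ± 0.16 (SE, edgeR adjusted p = 0.035), aged library 3 lay close to young library 2, and the call was lost when any library other than aged 3 was left out (adjusted p up to 0.148).

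**Figure D2:**
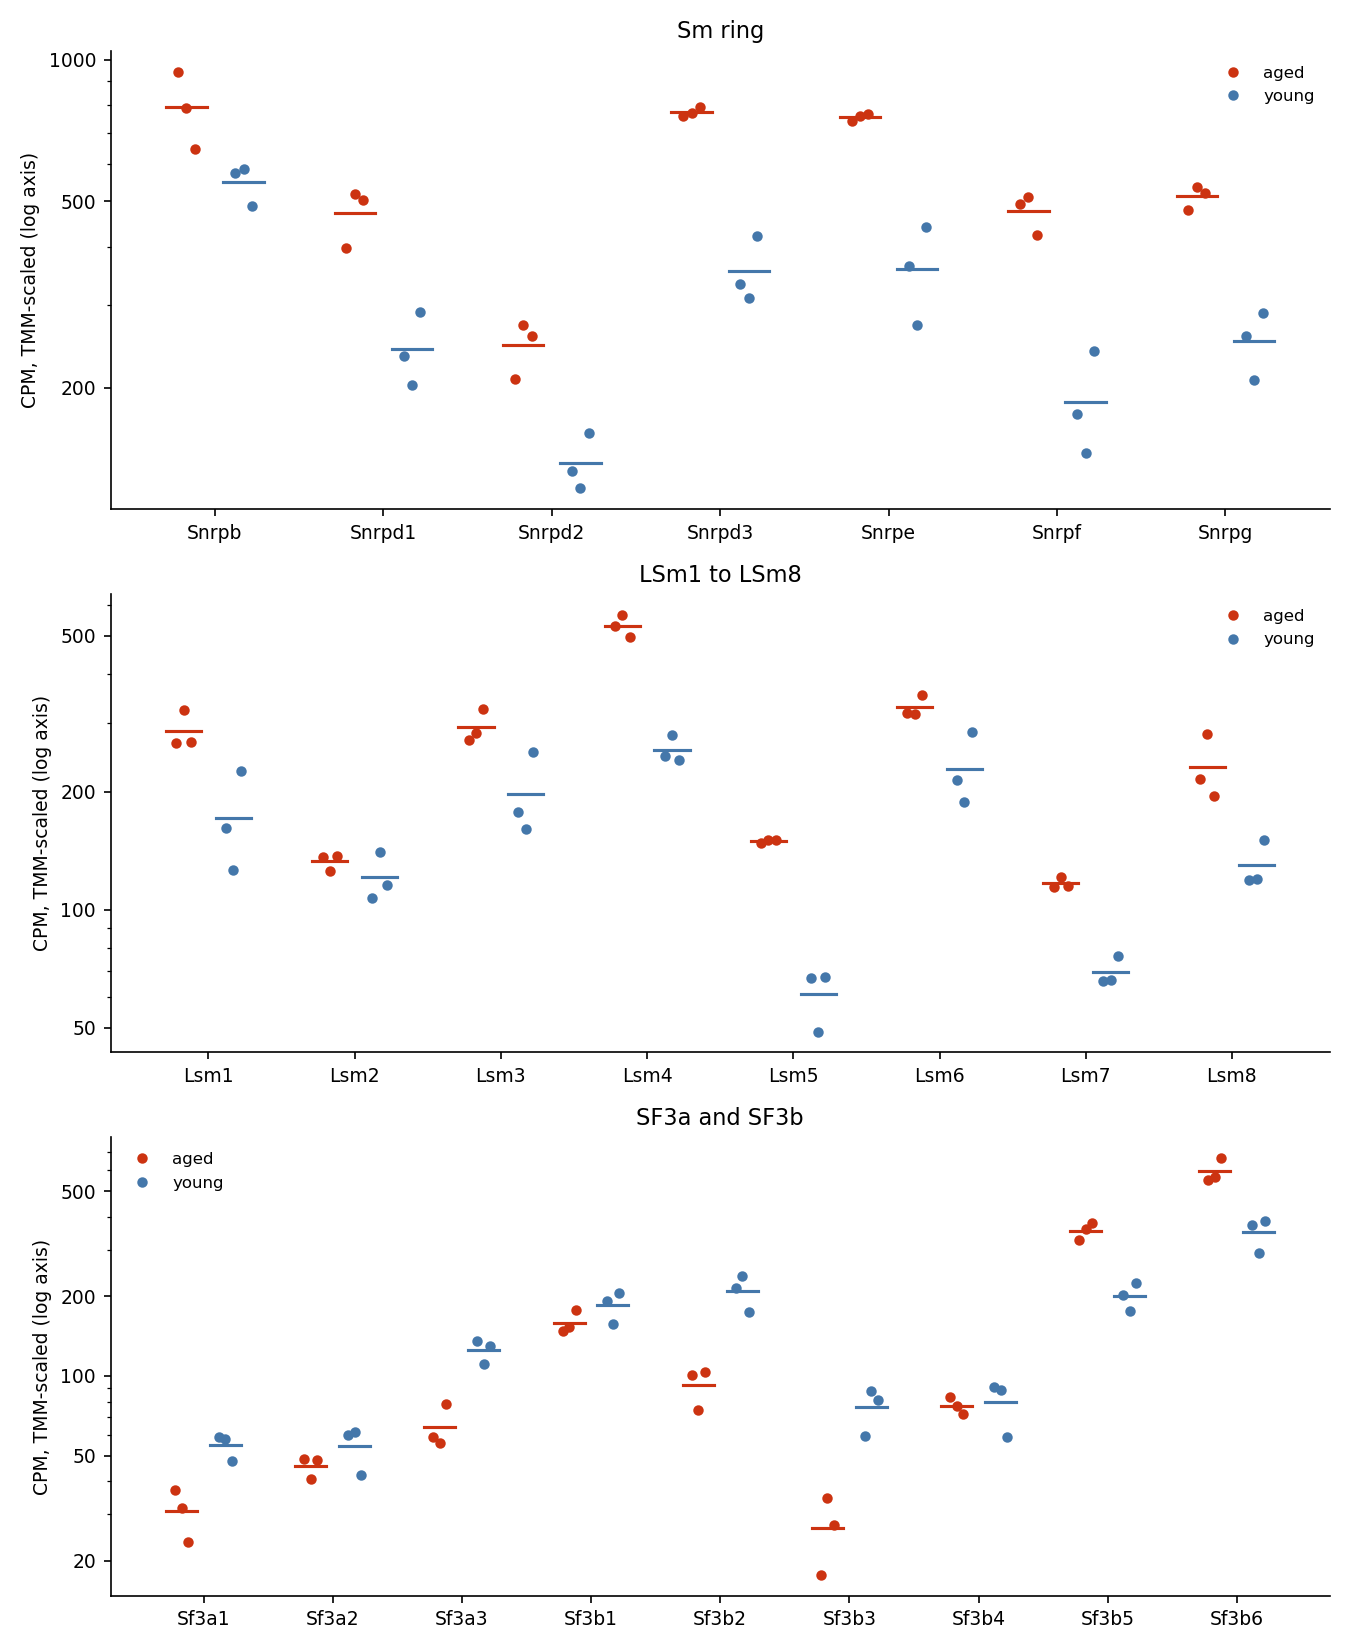
CPM (TMM-scaled, log axis) of the Sm ring genes, of Lsm1 to Lsm8 and of the SF3a and SF3b genes in each library; points are the 3 aged (red) and 3 young (blue) libraries and lines their means. All 7 Sm ring genes lie higher in aged libraries, while within SF3b the small subunit genes Sf3b5 and Sf3b6 lie higher and Sf3b2 and Sf3b3 lower.

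Promoter sequences are shown for a pair of genes that rose and a pair that fell, because the same short letters occur in all 4. RefSeq windows (GRCm38.p6) from 250 bases before to 50 bases after the gene start were held for 67 of the 78 members and for 27025 genes in all. RefSeq starts can differ from the GENCODE gene starts printed in the text. In all 4 genes shown the RefSeq start lies inside the GENCODE gene, and for Prpf6 the whole window does. The letters CCGGAAG, a core that ETS family factors recognise, were searched on both strands and occurred in 21 of the 67 member windows (31.3%), against 9.9% of all windows. They were in 4 of the 11 windows of genes that rose (Snrpg, Snrpe, Sf3b6 and Lsm5) and in 5 of the 7 of genes that fell (Sf3a3, Sf3a1, Sf3b3, Sf3b2 and Prpf6), so the motif occurred on both sides. Capitals below mark CCGGAAG or its reverse complement, and the Snrpe window holds a match on each strand, which overlap each other. The Snrpe window lies at chr1:133610231-133610530 on the minus strand. The Snrpg window lies at chr6:86371290-86371589, that of Sf3a3 at chr4:124714611-124714910 and that of Prpf6 at chr2:181601069-181601368, all on the plus strand.
Snrpe: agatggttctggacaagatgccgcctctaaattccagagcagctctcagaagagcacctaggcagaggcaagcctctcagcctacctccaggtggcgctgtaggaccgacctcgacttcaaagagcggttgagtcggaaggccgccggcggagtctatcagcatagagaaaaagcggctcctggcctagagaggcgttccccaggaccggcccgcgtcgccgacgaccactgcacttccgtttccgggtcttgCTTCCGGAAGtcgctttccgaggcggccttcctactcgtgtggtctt
Snrpg: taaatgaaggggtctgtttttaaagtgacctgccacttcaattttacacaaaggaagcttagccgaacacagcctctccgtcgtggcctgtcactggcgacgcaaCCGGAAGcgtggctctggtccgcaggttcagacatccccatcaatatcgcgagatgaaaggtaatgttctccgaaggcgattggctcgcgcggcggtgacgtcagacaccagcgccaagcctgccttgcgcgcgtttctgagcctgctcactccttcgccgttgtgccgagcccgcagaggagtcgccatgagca
Sf3a3: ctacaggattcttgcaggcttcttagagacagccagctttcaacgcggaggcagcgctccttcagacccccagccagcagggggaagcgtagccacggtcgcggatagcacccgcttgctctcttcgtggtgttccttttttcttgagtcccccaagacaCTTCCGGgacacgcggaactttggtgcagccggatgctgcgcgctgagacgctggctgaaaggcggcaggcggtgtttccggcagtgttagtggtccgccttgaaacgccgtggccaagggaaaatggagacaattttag
Prpf6: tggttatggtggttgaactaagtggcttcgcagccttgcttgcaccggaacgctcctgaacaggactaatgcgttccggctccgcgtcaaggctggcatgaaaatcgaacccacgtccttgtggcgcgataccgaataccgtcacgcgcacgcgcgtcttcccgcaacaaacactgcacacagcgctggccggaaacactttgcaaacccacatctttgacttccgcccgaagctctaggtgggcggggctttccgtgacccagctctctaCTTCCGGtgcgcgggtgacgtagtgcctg
Of the other motifs searched on both strands, the GC box GGGCGG was in 48 member windows (71.6%, against 38.2% of all), the CCAAT box CCAAT in 34 (50.7%, against 41.1%), TATAAA in 6 (9.0%, against 15.7%) and the YY1 motif AAGATGGCG in 3 (4.5%, against 1.6%). In 3 member windows matches of different motifs overlapped. A match describes the letters in the window and not a bound site.

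The 4 Snrp genes that encode U1- or U2-specific proteins did not pass the threshold, unlike the Sm ring genes, and their median log2 change was 0.26. Snrpc, the U1-C gene, had 105, 130.1 and 118 CPM in aged and 87.6, 84.9 and 85.7 CPM in young libraries, with the aged libraries above the young ones and a log2 change of 0.45 ± 0.17 (SE, edgeR adjusted p = 0.093). Snrpb2, which encodes the U2 protein B'', had a log2 change of 0.42, Snrpa (U1-A) of 0.10 and Snrpa1 (U2-A') of -0.14, each with overlapping groups. The difference between these genes and the ring was not tested.

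Of the 13 tested Lsm genes 7 rose in aged cells and 0 fell, with a median log2 change of 0.75, and on library totals 3 rose with a median of 0.34. Among all tested genes 11.2% rose and 8.14% fell, and on library totals 717 of 11805 rose. With the transcript and the coding length correction given below, 4 and 3 Lsm genes were called higher, 0 and 1 lower, and the median was 0.36 and 0.24. In these fits 10.4% and 8.62% of all genes were called higher and 5.27% and 4.74% lower. Among Lsm1 to Lsm8, whose products form the U6 and decapping rings, 5 of 8 rose. Lsm1, found in the cytoplasmic ring, and Lsm8, found in the nuclear ring, were both among them.

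Lsm5 (chromosome 6, 56701063 to 56704710), a subunit of both rings, had 148, 150.4 and 150.5 CPM in aged and 67.2, 48.9 and 67.4 CPM in young libraries, a log2 change of 1.29 ± 0.19 (SE, edgeR adjusted p = 0.00076). The aged values were nearly equal, and each was above every young value. Of the 75-base windows of Lsm5, 37.1% are shared with other genes. Lsm4 (chromosome 8, 70673248 to 70678752), also in both rings, had 529, 566 and 498 CPM in aged and 248, 279.8 and 241 CPM in young libraries, a log2 change of 1.05 ± 0.13 (SE, edgeR adjusted p = 0.00034). Both genes kept their call whichever library was left out, but Lsm4 lost it with the transcript (0.36) and the coding length correction (0.18), and Lsm5 with the transcript one (0.36).

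Lsm8 had 216, 281 and 196 CPM in aged and 119, 120.2 and 151 CPM in young libraries, a log2 change of 0.83. Lsm7 had 115, 121 and 115 CPM in aged and 65.9, 66.3 and 76.3 CPM in young libraries, a log2 change of 0.75, and 59.6% of its 75-base windows are shared with other genes. Both lost the call without young library 1, at an edgeR adjusted p of 0.054 for Lsm8 and 0.063 for Lsm7, and with either length correction (0.22 and 0.24 for Lsm8, 0.06 and 0.13 for Lsm7). Lsm1 had 267, 325 and 268 CPM in aged and 162, 126 and 227 CPM in young libraries, with a log2 change of 0.74 ± 0.21 (SE, edgeR adjusted p = 0.029), and it kept its call only when young library 3, the highest young one, was left out (adjusted p up to 0.118 otherwise). Lsm3 (log2 change 0.57) and Lsm6 (0.52) had aged libraries above the young ones but edgeR adjusted p-values of 0.053 and 0.054, and Lsm2 had a log2 change of 0.14 with overlapping groups.

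Outside the rings, Lsm10, whose product replaces an Sm protein in the U7 snRNP that processes histone mRNA, rose to 125, 99.2 and 121 CPM in aged libraries, against 52.8, 59.3 and 61.1 CPM in young ones. Its log2 change was 0.99 ± 0.19 (SE, edgeR adjusted p = 0.0038). Its U7 partner Lsm11 had 30.8, 31.5 and 27.3 CPM in aged and 10.7, 18.1 and 17.7 CPM in young libraries, groups that did not overlap, with an edgeR adjusted p of 0.071. Lsm12, an Sm-like domain gene, had 147, 143 and 155 CPM in aged and 82.9, 71.9 and 89.9 CPM in young libraries, a log2 change of 0.86 ± 0.17 with separate groups. Lsm14a and Lsm14b, which encode proteins of cytoplasmic mRNA granules, had log2 changes of -0.29 and 0.15 and did not pass the threshold.

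The SF3a and SF3b complexes, which hold the U2 snRNP at the branch point of the intron, moved in both directions. Of their 9 genes 2 rose and 4 fell, beside 11.2% and 8.14% of all tested genes. Both that rose encode small subunits of SF3b. Sf3b5 (chromosome 10, 13005343 to 13009183) had 326, 358 and 379 CPM in aged and 203, 176 and 224 CPM in young libraries, a log2 change of 0.82 ± 0.15 (SE, edgeR adjusted p = 0.0030). Sf3b6 (chromosome 12, 4817544 to 4827659), whose product lies close to the branch point, had 552, 563 and 666 CPM in aged and 371, 291 and 386 CPM in young libraries, a log2 change of 0.77 ± 0.15 (SE, edgeR adjusted p = 0.0048). In both genes the aged libraries lay above the young ones.

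Sf3b3 (chromosome 8, 110810239 to 110846787), a large scaffold subunit, had 17.7, 34.5 and 27.4 CPM in aged and 59.3, 87.8 and 80.9 CPM in young libraries, and its log2 change was -1.52 ± 0.29 (SE, edgeR adjusted p = 0.0040). Sf3b2 (chromosome 19, 5273932 to 5295455) had 100.8, 74.1 and 103 CPM in aged and 214, 239 and 174 CPM in young libraries, a log2 change of -1.17 ± 0.19 (SE, edgeR adjusted p = 0.0016). Both large subunit genes were thus lower in every aged library, but with the transcript and the coding length correction Sf3b3 was at -0.88 and -0.63 and was not called (edgeR adjusted p = 0.059 and 0.19). Sf3b1, the largest subunit, and Sf3b4 had overlapping groups and log2 changes of -0.22 and -0.04. Phf5a, which encodes another small SF3b subunit but falls outside the name rule, was not called, at a log2 change of 0.21 ± 0.17.

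For SF3a, Sf3a3 had 58.7, 55.8 and 78.2 CPM in aged and 135.0, 111 and 129 CPM in young libraries, a log2 change of -0.96 ± 0.20 (SE, edgeR adjusted p = 0.0060) with no overlap. Sf3a1 had 37.1, 31.6 and 23.6 CPM in aged and 58.5, 57.9 and 47.6 CPM in young libraries, a log2 change of -0.83 ± 0.26 (SE, edgeR adjusted p = 0.043). The Sf3a1 call held only when aged library 1 was left out and was lost without any other library (adjusted p up to 0.166), and it was also lost with the size factors of DESeq2 in the edgeR test (adjusted p = 0.051). With the transcript and the coding length correction Sf3a1 was at -0.14 and -0.06 (edgeR adjusted p = 0.79 and 0.92). Sf3a2, whose exons overlap those of Plekhj1 on the opposite strand over 16.1% of their length, had a log2 change of -0.25 and overlapping groups.

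Of the 13 tested Prpf genes, which act mostly in the U4, U5 and U6 snRNPs and in their joining, 0 rose and 3 fell. Beside these stand 11.2% higher and 8.14% lower of all tested genes. The median log2 change of the Prpf genes was -0.24. With the transcript length correction given below the median was -0.14 with 1 lower call, and with the coding one 0.09 with 0. In those fits 5.27% and 4.74% of all genes were lower. On library totals the median was -0.64 with 5 lower calls, where 2381 of all 11805 tested genes were lower. Prpf6 (chromosome 2, 181591868 to 181655660), a bridge between the U5 and the U4 and U6 snRNPs, was at 4.57, 8.09 and 15.4 CPM in aged and 43.1, 49.5 and 28.3 CPM in young libraries. This was the largest change of any member, a log2 change of -2.11 ± 0.45 (SE, edgeR adjusted p = 0.0077), and the highest aged library stayed below the lowest young one.

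Prpf8 (chromosome 11, 75486816 to 75509449), the U5 protein at the catalytic centre of the spliceosome, had 16.6, 24.1 and 13.03 CPM in aged and 49.5, 52.5 and 30.1 CPM in young libraries, with no overlap. Its log2 change was -1.30 ± 0.34 (SE, edgeR adjusted p = 0.021), and the call was lost without aged library 1 or 3 or without young library 1 or 2 (adjusted p up to 0.094). With the transcript and the coding length correction Prpf8 was at -0.51 and -0.39 and was not called (edgeR adjusted p = 0.32 and 0.48). Of the Prpf genes, 10 did not pass, among them Prpf19, the ubiquitin ligase of the Prp19 complex (-0.18), Prpf31 (-0.58) and Prpf38b (-1.03).

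Of the 10 tested SR protein genes 1 rose and 0 fell, beside 11.2% and 8.14% of all tested genes, with a median log2 change of 0.22 that was -0.20 on library totals and -0.08 after the coding length correction. Srsf2 (chromosome 11, 116849901 to 116853094), whose product SC35 marks nuclear speckles, had 484, 428 and 516 CPM in aged and 358, 366 and 353 CPM in young libraries. The groups did not overlap, and the log2 change was 0.41 ± 0.13 (SE, edgeR adjusted p = 0.048). The call was lost whichever library was left out (adjusted p 0.056 to 0.161) and with no filter on low counts (0.067), the log2 change was -0.01 on library totals, and 15.6% of the exon length overlaps Mettl23 on the opposite strand. Srsf10, which encodes a splicing regulator, had 53.2, 63.4 and 92.1 CPM in aged and 42.1, 41.8 and 41.8 CPM in young libraries, with an edgeR adjusted p of 0.060. With the transcript length correction Srsf10 was called higher (1.11, edgeR adjusted p = 0.0064), and so were Srsf2 (0.52) and Srsf3 (0.45), 3 of the 10 genes, while the coding length correction left 0. With these corrections 10.4% and 8.62% of all genes were called higher. Srsf4 had 31.0, 6.87 and 22.3 CPM in aged and 47.1, 62.9 and 33.7 CPM in young libraries, groups that did not overlap, with a log2 change of -1.26 (edgeR adjusted p = 0.088). Srsf1, Srsf3 and Srsf7, widely expressed SR genes, had overlapping groups and log2 changes of -0.09, 0.29 and 0.14.

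Of the 20 tested Hnrnp genes 0 rose and 1 fell, beside 11.2% and 8.14% of all tested genes, and the median log2 change was 0.00 (0.005). On library totals the median was -0.41 and 6 were called lower, where 2381 of all 11805 tested genes were lower. With the transcript length correction given below, 4 of the 20 were called higher and 0 lower (Hnrnpa0, Hnrnpab, Hnrnpc and Hnrnpdl, at 0.77, 0.47, 0.38 and 0.67) and the median was 0.22. In that fit 10.4% of all genes were higher and 5.27% lower. The coding length correction called 1 higher and 0 lower, beside 8.62% and 4.74% of all genes, with a median of 0.27. Hnrnpu (chromosome 1, 178321108 to 178337797), a nuclear scaffold protein that binds RNA and chromatin, fell to 135, 149 and 167 CPM in aged libraries, against 269, 279 and 208 CPM in young ones. Its log2 change was -0.75 ± 0.17 (SE, edgeR adjusted p = 0.0096), and leaving out young library 1 ended the call (adjusted p = 0.062), as did the transcript length correction (-0.18, adjusted p = 0.57) and the coding length correction (-0.08, 0.82). Hnrnpul1 and Hnrnpul2, relatives of Hnrnpu, also had aged libraries below the young ones, with log2 changes of -0.77 and -1.10 and edgeR adjusted p-values of 0.056 and 0.097. Hnrnpll, which in T cells represses CD45 exons, had 35.8, 35.5 and 54.0 CPM in aged and 58.4, 44.9 and 47.3 CPM in young libraries, with overlapping groups. Hnrnpa2b1, Hnrnpk and Hnrnpab, abundant pre-mRNA packaging proteins, had log2 changes of -0.17, 0.06 and 0.17. Counts of Hnrnpa1 and Hnrnpa3 are uncertain, because 44.4% and 90.3% of their 75-base windows occur in transcripts of other annotated genes. In all, 17 of the 78 members share at least 10% of such windows, and 10 overlap another gene's exons over at least 10% of their length.

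Levels between genes were compared as CPM per kilobase of transcript. Snrpe was the most abundant member at 1503 CPM per kilobase in aged and 713 CPM per kilobase in young libraries, followed in aged libraries by Snrpb (684 in aged and 473 in young), Lsm4 (574 in aged and 277 in young) and Snrpf (553 in aged and 217 in young). In young libraries Lsm3 at 319 and Sf3b6 at 296 stood behind Snrpb, and Lsm4 and Snrpf lower still. The highest member of the SR genes was Srsf2 at 250.6 CPM per kilobase in aged and 189 in young libraries, of the Hnrnp genes Hnrnpab at 276 in aged and 246 in young, and of the Prpf genes Prpf38a at 51.0 in aged and 55.5 in young libraries. Sf3a3, the highest SF3a gene, stood at 35.3 in aged and 68.7 in young libraries. Prpf40b was the lowest tested member at 0.665 in aged and 0.770 in young libraries. Across the 76 members the log2 change and the mean level per kilobase had a Spearman rho of 0.62, a description over genes that share the same 6 libraries. The level is divided by transcript length, with which the log2 change itself had a rho of -0.61. The value of 0.62 is thus not separate from the relation with length.

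The log2 change of the members followed the length of the gene product. The Spearman rho with coding length was -0.86 over the 76 members and -0.42 over the 10809 tested genes with a coding length, and with transcript length it was -0.61 and -0.36. Of 18 members in the shortest of 5 equal groups by transcript length (up to 1481 bases) 12 rose and 0 fell, where 31.2% of all genes of that group rose and 3.21% fell. Of 11 members in the longest group (4545 bases or more) 0 rose and 4 fell, where 2.55% of all genes rose and 12.5% fell. The cause of the relation was not tested.

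**Figure D3:**
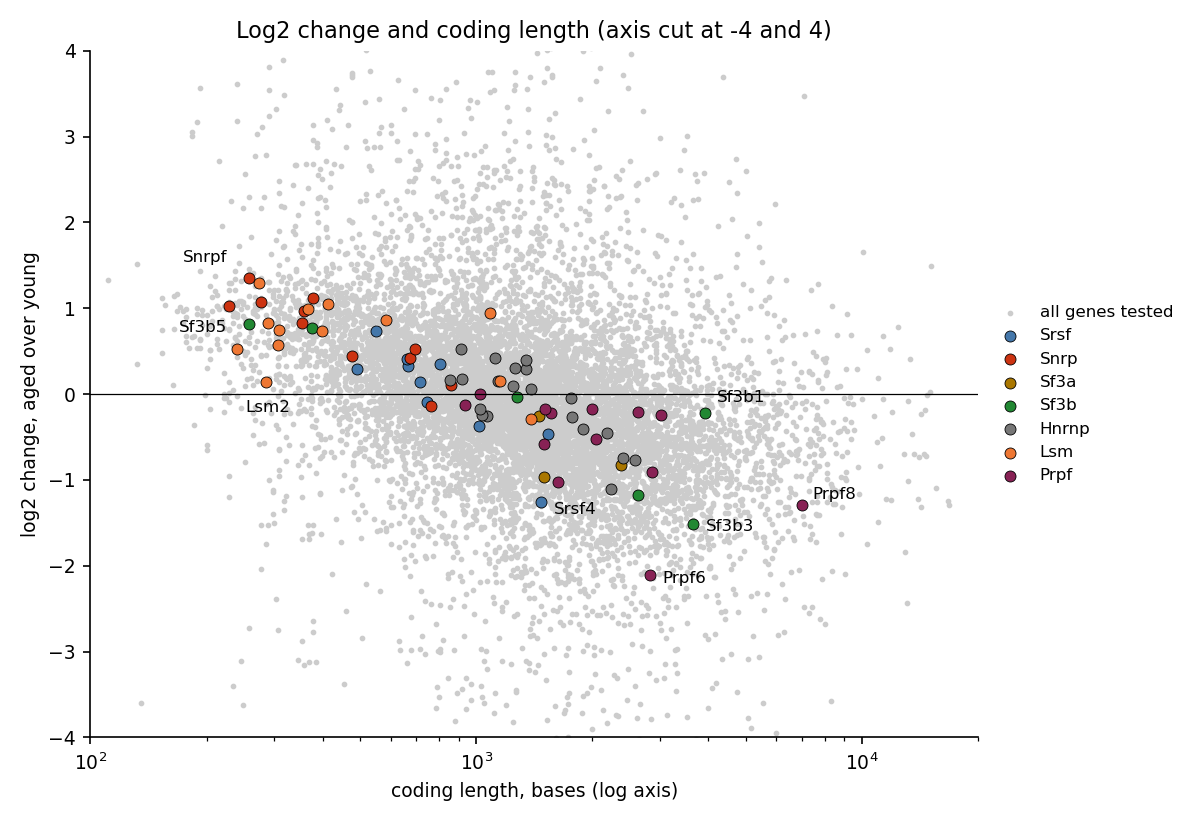
Log2 change, aged over young, against coding length in bases (log axis). Grey points are the 10809 tested genes with a coding length, and coloured points the splicing factor genes by family. Both axes are cut, and genes beyond their limits are not shown. The coloured points run from short genes such as Snrpf at the upper left to long genes such as Prpf8 and Sf3b3 at the lower right, with rho -0.86 over 76 members.

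With offsets that removed each library's smooth dependence on transcript length and GC content, 19 members rose and 3 fell, against 10.4% and 5.27% of all genes. With coding length in place of transcript length, an alternative chosen after the relation had been seen, 10 rose and 1 fell, against 8.62% and 4.74%. Snrpd1, Snrpd3, Snrpe, Snrpf, Snrpg and Lsm12 rose in all 3 fits, and 0 members fell in all 3. Their log2 changes after the coding length correction were 0.45, 0.70, 0.50, 0.76, 0.44 and 0.60. Snrpd2 was called with the transcript correction (log2 change 0.64) and not with the coding one (0.29), and Snrpb was at -0.00 (-0.004) with either.

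Calls in the SF3, Prpf and Lsm genes also changed with the corrections. Prpf6 at -1.65, Sf3a3 at -0.89 and Sf3b2 at -0.78 stayed lower with the transcript correction, and with the coding correction they were at -1.33, -0.49 and -0.57 with edgeR adjusted p-values of 0.056, 0.12 and 0.051. Sf3b5 and Sf3b6 were called higher with the transcript correction, at 1.33 and 0.41. With the coding correction they were at 0.23 and 0.28 and were not called, while Sf3b1 was called higher at 0.61. Lsm10 lost the call with the transcript (0.46) and the coding correction (0.31), Lsm1 with the coding one (0.34), and Lsm5 was called with the coding one (0.69). Lsm11 was called higher with both, at 1.68 with the transcript and 1.15 with the coding correction, and Lsm2 was called lower with the coding correction at -0.58. The median of the SF3b genes was 0.12 with either correction, against -0.13 without.

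**Figure D4:**
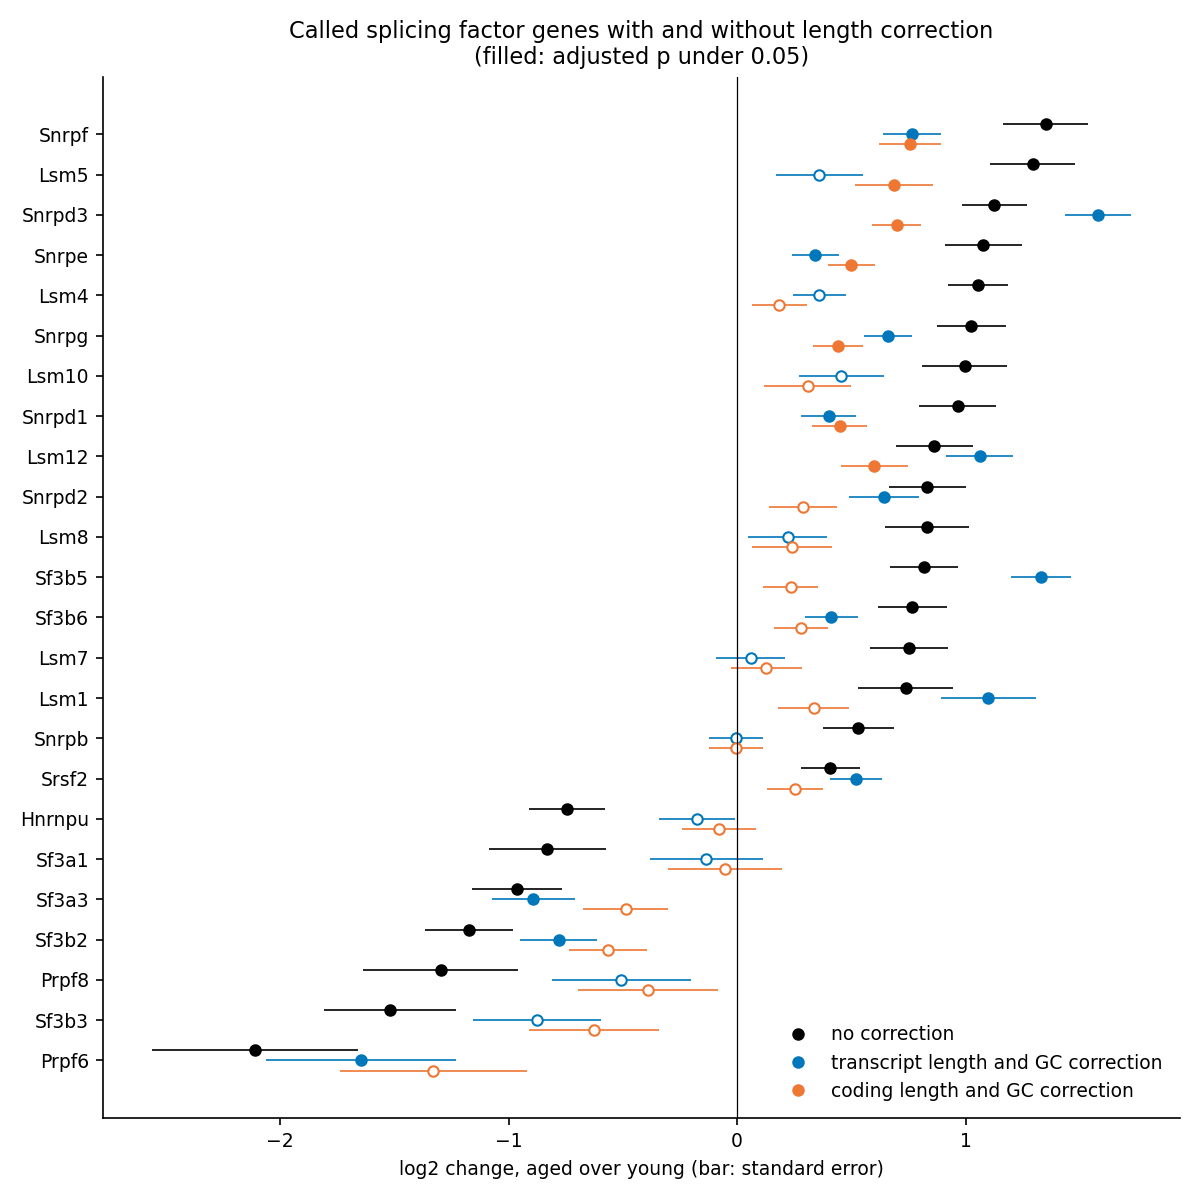
Log2 change, aged over young, with standard error, of 24 of the 25 called members without correction (black), with the transcript length and GC correction (blue) and with the coding length and GC correction (orange); filled points have an adjusted p under 0.05. Snrpd1, Snrpd3, Snrpe, Snrpf, Snrpg and Lsm12 are filled in all 3, and no member on the left of 0 is.

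The rest of the splicing machinery was read from 9 lists of other genes, whose counts stand beside 11.2% higher and 8.14% lower among all tested genes. Of 23 tested further snRNP proteins 2 rose and 3 fell (8.7% and 13%, near the shares of all genes), with a median log2 change of -0.05. Snrnp27, a tri-snRNP protein, rose (0.98) and so did Snrnp25 of the minor spliceosome (0.77), while Eftud2, the U5 GTPase that contacts Prpf8, had 44.4, 28.6 and 44.9 CPM in aged and 91.8, 157 and 78.9 CPM in young libraries. The Eftud2 groups did not overlap, with a log2 change of -1.47 ± 0.29. Of 27 tested Prp19 complex and catalytic step factors 1 rose and 4 fell (3.7% and 14.8%, median -0.60), among them the lower Xab2 (-1.36). With the transcript length correction 1 rose and 3 fell (median -0.285), and with the coding one 1 rose and 0 fell (median -0.10). Of 10 factors that recognise the 3' splice site 1 rose, U2af1 (0.54), and 0 fell. The U2af1 call was lost without any library other than young 3 (edgeR adjusted p up to 0.121) and that of Xab2 without young library 2 (0.060). With the coding length correction Snrnp27 kept its call and Eftud2 (-0.73), Xab2 (-0.89), Snrnp25 (0.06) and U2af1 (0.22) did not. With the transcript length correction Eftud2 (-0.99) and Xab2 (-1.17) kept theirs and Snrnp27 (0.44), Snrnp25 (0.14) and U2af1 (0.08) did not.

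Of the 10 exon junction complex genes 3 rose and 1 fell. Magoh, a core subunit, had 271, 284 and 345 CPM in aged and 147, 118 and 157 CPM in young libraries, with no overlap and a log2 change of 1.09 ± 0.17. Its paralog Magohb rose by a log2 change of 1.13, and Eif4a3, the RNA helicase of the core, fell by 0.54, a call that was lost without any library other than aged 3 (edgeR adjusted p up to 0.117). Magoh (0.39) and Magohb (0.43) were not called with the transcript length correction, nor Eif4a3 (-0.41) with the coding one. Of 39 other splicing regulators 3 rose and 7 fell (7.69% and 17.9%, median -0.29), but with the transcript length correction 3 rose and 1 fell (median 0.17) and with the coding one 2 rose and 2 fell (median 0.10). Rbm3, a cold-inducible RNA-binding protein, had 363, 442 and 456 CPM in aged and 196, 174 and 234 CPM in young libraries, and Celf2, a splicing regulator of lymphocytes and brain, had 75.3, 108 and 88.6 CPM in aged and 191, 188 and 187 CPM in young libraries. The log2 changes were 1.06 for Rbm3 and -1.06 for Celf2, and both kept their calls with either length correction.

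Of 16 genes in a list for the assembly of Sm rings 2 rose and 1 fell (12.5% and 6.25%, near the shares of all genes), with a median log2 change of -0.07, beside 1.03 for the ring genes themselves. The 2 that rose were Coprs and Gemin7. The Gemin7 call was lost without any library other than aged 3 (edgeR adjusted p up to 0.136) and with either length correction. Coprs was listed as a partner of the arginine methyltransferase PRMT5, and any part of it in ring assembly was not tested. Its values were 77.8, 89.8 and 86.2 CPM in aged and 33.9, 29.0 and 25.1 CPM in young libraries, a log2 change of 1.53 with separate groups. Smn1 (0.32), Prmt5 (-0.48) and Clns1a (0.15), which act in loading Sm proteins, did not pass. Of 9 decapping and decay partners of the LSm ring 0 rose and 1 fell. It was Edc4, a decapping scaffold, at 9.41, 13.4 and 5.47 CPM in aged and 41.9, 54.6 and 27.4 CPM in young libraries, a log2 change of -2.13 ± 0.41 that kept its call with either length correction. None of the 7 SR protein kinases and none of the 6 U7 and histone mRNA processing genes tested was called.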

How the data were processed

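RNA-seq libraries of cultured brain ILC2 (3 aged, 3 young) were grouped by the age in their titles. The authors deposited a table of raw counts per gene symbol without normalization. Per the submitters' processing notes, the tools were STAR 2.5.3a, Cufflinks 2.0 and DESeq2 1.1, after bcl2fastq 2.20.0.422 and FastQC 1.0.0, with the build mm10. Not given in the sources used here are the counting tool, the annotation and the strand setting.

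The tests ran in edgeR 4.0.16 (R 4.3.3). filterByExpr (minimum count 10, total 15) kept 11805 of 24421 genes (48.3%), libraries were scaled by TMM, and the groups were compared with glmQLFit and glmQLFTest over all kept genes, with Benjamini-Hochberg adjustment and a threshold of 0.05. The common biological coefficient of variation was 53%. The fit was also run on simulated counts with a smaller spread than these data, and no result here rests on that run. Standard errors are log2 changes over the root of F. Coordinates, lengths and exon overlaps come from GENCODE vM21 (GRCm38, called mm10), matched for all 78 members, and shared sequence was counted in windows of 75 bases. Length corrections used offsets from splines (4 degrees of freedom) of each library on length and GC content. Alternatives were DESeq2 1.42.0, limma-voom (limma 3.58.1), other scalings and filters, a robust fit, the replicate number as a block, leaving out each library, and the length corrections.

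A called Prpf gene that the rule below names stays in the fits and the counts but is not reported here. Members and lists were chosen with earlier results of these data known. Named genes are, per family, up to 4 called members in each direction by smallest p, the member with the highest level per kilobase, and, where none is called, the 2 with the smallest p, and per further list up to 2 called genes in each direction. Other members are named because the family fixes membership, and Phf5a, Smn1, Prmt5 and Clns1a were picked for their roles after their values were seen.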

Additional observations from a re-analysis of the deposited data

How the results depend on the processing

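Of 17 members higher and 8 lower in aged cells, DESeq2 called 22 and 10, limma-voom 19 and 10, and library totals alone 8 and 19. Over all genes these settings called 1747 and 1350 of 12819, 1428 and 996 of 11805, and 717 and 2381 of 11805. The transcript length and GC correction left 3 lower, the same with the replicate block 4 (and 14 higher, with the calls of Snrpd1 and Snrpe lost at adjusted p = 0.066 and 0.071), and the coding length correction, added after seeing the data, 10 higher and 1 lower. Leaving out each library in turn gave 12 to 17 higher and 4 to 7 lower, with 4 lower without young replicate 1. With the replicate number as a block 18 rose and 8 fell. Same-numbered libraries correlated at 0.02, 0.01 and 0.04 in their deviations from group means, and differently numbered ones at -0.027 to 0.012. Correlations this weak, from means of 3 libraries, cannot decide whether the numbers mark pairs. The sign of the log2 change turned for Snrpb (-0.004, -0.012 and -0.004) and Gemin7, which helps to assemble Sm rings (0.50 without correction; -0.173, -0.172 and -0.216), with the transcript correction, the same with the block, and the coding correction. It also turned for Srsf2 (-0.009) and Hnrnpab (-0.253) on library totals, for Prpf38a without aged replicate 1 (0.037, with -0.429 as the lowest value when 1 library is left out) and for Ddx46, a U2-associated helicase, with the coding correction (0.101, against -0.70). The cause was not tested. Each group has 3 libraries of 16477157 to 20804291 counts, and what depth limits was not tested.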
